A study of Bos grunniens with 18 samples.

Results

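The cauda and the caput are the tail and the head of the epididymis, the duct in which sperm mature and are stored after leaving the testis. N6-methyladenosine (m6A) peaks of these regions were compared in yaks (Bos grunniens), and all 13826 peaks of that comparison are described here, of 41804 peaks in the 3 pairwise comparisons of the series. Each peak, called a site below, is a stretch of transcript and not a single adenosine. The sites carried 8070 gene identifiers, of which 7823 had a gene symbol, and 143 sites had no gene identifier.

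Epididymides came from 6 healthy male yaks of 4 years, untreated, and were cut by anatomy into head, body (corpus) and tail. Poly(A) RNA was fragmented and pulled down with an m6A antibody (RIP libraries) or left unenriched (input libraries). The comparison rests on 3 RIP and 3 input libraries of the cauda against 3 RIP and 3 input libraries of the caput. The labels do not tie libraries to animals, and no source used here names the authors' test. Whether their p-values take in any spread between animals is therefore unknown. All of it is whole tissue, so fewer cells of a type and less RNA per cell cannot be told apart.

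m6A is placed on nascent messenger RNA by a methyltransferase complex built around METTL3 and METTL14, with WTAP and VIRMA among its partners. It is removed by the demethylases FTO and ALKBH5 and bound by reader proteins of the YTH family. The mark is known for its effects on splicing, export, translation and decay of transcripts. The epididymal epithelium is made of principal cells that secrete proteins onto sperm, proton-secreting clear and narrow cells, and basal cells. Gene programmes of the epithelium are known to change in zones along the duct.

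Per site, the authors' deposited table gives a ratio of cauda over caput, its log2 value, a p-value and an adjusted p-value. A site is called higher or lower in the cauda where the adjusted p is under 0.05. The table has no values per library, so no replicate spread can be shown and the depth behind a site is unknown. No source used here says whether the ratio is taken relative to input. Methylation and transcript abundance therefore cannot be told apart in it. Sequences and exon classes of the sites were not analysed here, and the coordinates are those of the files, whose build no source used here names. Of the 53 symbols of a list of secreted epididymal proteins, 7 had a site.

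Per the authors' deposited table, a total of 314 sites were called, of which 195 were higher in the cauda and 119 lower. This is 2.27% of the sites tested (1.41% higher, 0.861% lower). They lay in 300 genes, 3.72% of the genes with a site (2.35% with a higher and 1.39% with a lower site). At an unadjusted p under 0.05, 17.2% of sites passed (10.5% higher, 6.68% lower). In the comparisons with the corpus, 1.96% of sites were called for cauda over corpus and 2.98% for corpus over caput. The median log2 fold over all sites was 0.0426, with quartiles of -0.178 and 0.247, and 54.9% of sites were above 0 per the authors' deposited table. Called sites were mostly moderate in size: their median absolute log2 fold was 0.63, and 62 of the 314 differed at least 2-fold (29 higher, 33 lower). The adjusted p just inside and just outside the threshold was 0.0490 and 0.0501 per the authors' deposited table.

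**Figure D1:**
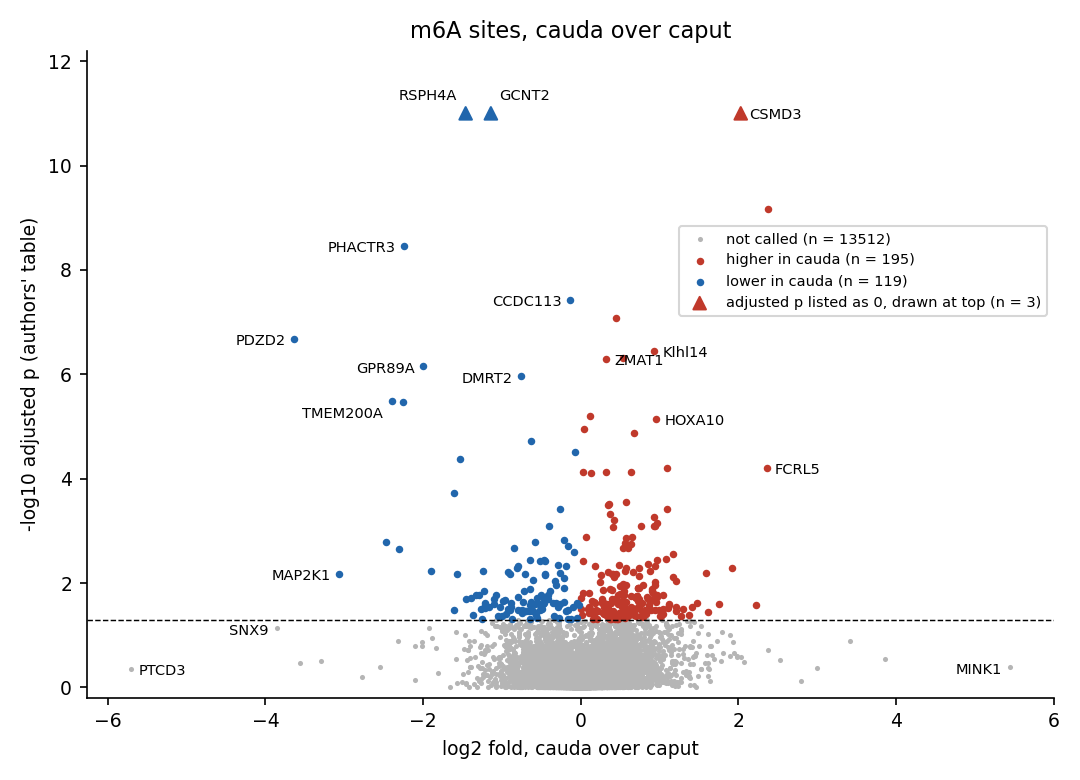
Each point is 1 of 13826 m6A sites; the x axis is the authors' log2 fold of cauda over caput and the y axis -log10 of the authors' adjusted p, with the dashed line at 0.05 and the 3 sites whose adjusted p is listed as 0 drawn as triangles at the top. The 195 higher sites (red) and 119 lower sites (blue) lie above the line, while the sites with the extreme folds, those of PTCD3 and MINK1, lie below it.

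Among the sites higher in the cauda, the lowest p belonged to CSMD3, which encodes a large membrane protein with CUB and Sushi domains. Its site on chromosome 18 from 42726351 to 42726501, plus strand, was 4.08-fold higher (log2 fold 2.03), with a p listed as 0 per the authors' deposited table. Such an entry is a placeholder, since its log10 value is -434 while no other is under -12.8, so it gives no measure of strength. The site held 5 candidate adenosines in the cauda list and 0 in the caput list, 1 of them classed as an m6A site.

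Among genes with a symbol Klhl14, a kelch-family gene, followed with a log2 fold of 0.93 (adjusted p = 3.55e-07, from the authors' deposited table) at chromosome 21 from 19572602 to 19576289, plus strand. The other sites of Klhl14 were at 0.52 and -1.02 and were not called per the authors' deposited table. ZMAT1, a zinc finger gene with a site of 1730 bases, was higher by 0.33 (adjusted p = 5.13e-07, from the authors' deposited table). With 21 candidates in the caput list and 59 in the cauda list, it held the most candidates of the called higher sites in genes with a symbol, and 18 were classed as m6A sites.

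HOXA10, a homeobox regulator of position along the body axis, had 1 site, on chromosome 4 from 56111679 to 56112074, minus strand. It was 1.95-fold higher in the cauda (log2 fold 0.96, adjusted p = 7.08e-06, from the authors' deposited table). All of its 8 candidate adenosines came from the cauda list, and 0 were classed as m6A sites.

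Further sites by lowest p, all higher in the cauda per the authors' deposited table, covered several functions. TEX19, a gene of germ cells, was at 0.67 (adjusted p = 1.32e-05, from the authors' deposited table). SMS, spermine synthase, was at 1.10 and 2.14-fold (adjusted p = 6.31e-05, from the authors' deposited table). SLC15A3, a peptide and histidine transporter, was at 0.64 (adjusted p = 7.41e-05, from the authors' deposited table). PCDH7, a protocadherin, and NDUFB9, a subunit of respiratory complex I, were called at log2 folds of only 0.12 (adjusted p = 6.17e-06) and 0.0465 (adjusted p = 1.12e-05) per the authors' deposited table.

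Other sites had the largest called increases. At the top was a site without a symbol on chromosome 13 from 35942051 to 35942388, plus strand (log2 fold 2.38, adjusted p = 6.76e-10, from the authors' deposited table). A site under the symbol FCRL5, whose description in the annotation names Fc receptor like 3, was 5.13-fold higher (log2 fold 2.36, adjusted p = 6.31e-05, from the authors' deposited table). CLBA1 was at 2.22 (adjusted p = 0.0263), FRMD6, a FERM-domain gene, at 1.92 (adjusted p = 0.00525) and EVI5, a GTPase regulator, at 1.75 (adjusted p = 0.0257) per the authors' deposited table. FAM92A was at 1.61 (adjusted p = 0.0355), COQ7, a hydroxylase of coenzyme Q synthesis, at 1.59 (adjusted p = 0.00646) and AQP11, an aquaporin, at 1.47 (adjusted p = 0.0240) per the authors' deposited table. The 7 sites from FCRL5 to AQP11 were short, from 149 bases in AQP11 to 298 bases in EVI5. Each held candidates in the cauda list and 0 in the caput list.

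Among the sites lower in the cauda, RSPH4A, a radial spoke component of motile cilia, and GCNT2, a glycosyltransferase, carried a p listed as 0. Their log2 folds were -1.46 and -1.14 per the authors' deposited table. PHACTR3, a phosphatase and actin regulator, was 4.72-fold lower (log2 fold -2.24, adjusted p = 3.47e-09, from the authors' deposited table). PDZD2, a PDZ-domain gene, had the largest called decrease: its site on chromosome 23 from 40856182 to 40856480, plus strand, was 12.5-fold lower (log2 fold -3.64, adjusted p = 2.09e-07, from the authors' deposited table). The 7 other sites of PDZD2 lay between -1.12 and 0.52 and none was called per the authors' deposited table. The called site held 5 candidates in the caput list, 3 of them classed, and 0 in the cauda list.

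MAP2K1, a kinase of the MAP kinase cascade, had 1 site, 8.4-fold lower (log2 fold -3.07, adjusted p = 0.00661, from the authors' deposited table), of 194 bases and with 0 assigned candidates from either list. FAM81A (-2.47, adjusted p = 0.00166), TMEM200A (-2.40, adjusted p = 3.31e-06) and USH1C, the harmonin gene (-2.31, adjusted p = 0.00219), followed per the authors' deposited table. GPR89A, a Golgi pH regulator, was lower by a log2 fold of -2.0 at 1 of its 4 sites (adjusted p = 7.08e-07), while the others were at 0.36, -0.0589 and 0.18 per the authors' deposited table. CEP120, a centrosomal protein needed for centriole growth, was at -1.61 (adjusted p = 1.91e-04) and its other site at -0.18 per the authors' deposited table.

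DMRT2, a transcription factor gene, had a single-block site of 899 bases that was lower by -0.76 (adjusted p = 1.10e-06, from the authors' deposited table). It held 26 candidates in the caput list, 0 in the cauda list, and 6 classed as m6A sites. Small but called decreases were those of CCDC113, a ciliary gene (-0.13, adjusted p = 3.80e-08), and Macroh2a1, a histone variant (-0.0721, adjusted p = 3.02e-05), per the authors' deposited table.

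Only 9 genes had more than 1 called site. Every called site was lower in DEFB118, a beta-defensin (-1.57 and -0.80), in Hnf4a, a nuclear receptor of epithelia (-0.63 and -1.22), in RSPH4A (-1.46 and -0.58) and in GCNT2 (-1.14 and -0.90) per the authors' deposited table. For Hnf4a the sites are neighbours on chromosome 12, from 68249817 to 68250504 and from 68250603 to 68250750. Every called site was higher in GP1BA, a platelet glycoprotein gene (0.54 and 0.37), in NECAB2, a calcium-binding protein gene (0.85 and 0.49), and in STX6, a syntaxin of endosomal membrane fusion (0.39 and 1.17), per the authors' deposited table.

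In 2 genes the called sites pointed both ways. ADAM28, a metalloprotease-family gene, ran in 5′ to 3′ order from 0.13 (adjusted p = 7.76e-05) through 0.0926 (adjusted p = 0.357) and -1.90 (adjusted p = 0.00575) to -2.26 (adjusted p = 3.39e-06) per the authors' deposited table. The last site spans chromosome 7 from 6759721 to 6766875, plus strand, with 11 candidates in the caput list and 0 in the cauda list. GALNT5, which starts mucin-type O-glycans, ran from 0.18 through 0.90 (adjusted p = 0.0209) and 0.16 to -0.0415 (adjusted p = 0.0240) per the authors' deposited table. The last GALNT5 site was called lower although its 14 candidates were all in the cauda list.

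**Figure D2:**
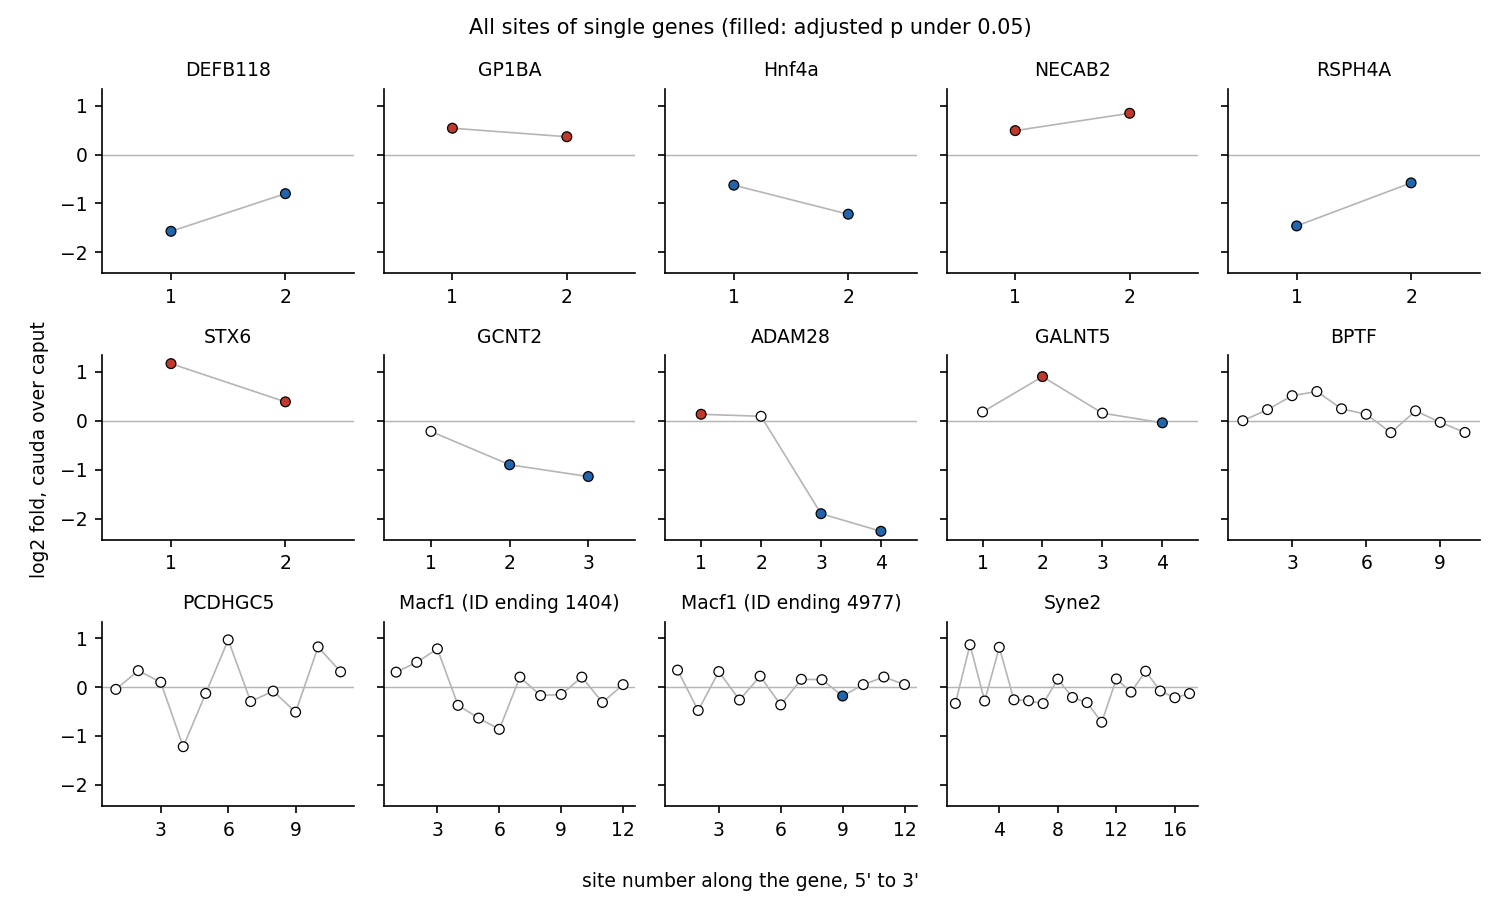
Each panel shows 1 gene, with its sites numbered from the 5′ to the 3′ end on the x axis and the authors' log2 fold of cauda over caput on the y axis; filled points are called (red higher, blue lower) and lines only join the sites of a gene. The first 9 panels are the genes with more than 1 called site, and the others are the 5 gene identifiers with the most sites (BPTF was taken among identifiers tied at 10 sites), in which folds scatter on both sides of 0.

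Of 3467 genes with more than 1 site, 171 had a called site, and in 88 of these at least 1 site had the opposite sign to a called one per the authors' deposited table. The median range of log2 folds within a gene was 0.39 over all genes with more than 1 site. The genes with the most sites show the same scatter. Syne2, a giant nuclear envelope protein gene, had 17 sites between -0.72 and 0.87, of which 5 were above 0 and 0 were called (5 at an unadjusted p under 0.05) per the authors' deposited table. A gene under the symbol Macf1, a spectraplakin that links actin and microtubules, had 12 sites between -0.48 and 0.35 with 1 called lower (-0.18), and another identifier under that symbol had 12 sites with 0 called (1 at an unadjusted p under 0.05) per the authors' deposited table. PCDHGC5, a protocadherin, had 11 sites and BPTF, a chromatin remodeler, 10, with 0 called (2 and 0 at an unadjusted p under 0.05) per the authors' deposited table.

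The share of sites called changed little with the number of sites in the gene until the genes richest in sites. It was 2.80% in genes with 1 site, 2.08% with 2, 2.23% with 3 and 2.26% with 4, but 0.929% (11 of 1184 sites) in genes with 5 or more. Per gene, a called site was found in 2.80% of the genes with 1 site, 3.89% with 2, 6.56% with 3, 7.97% with 4 and 5.53% with 5 or more. Position in the gene made little difference: 2.08% of the sites nearest the 3′ end and 2.02% of those nearest the 5′ end of genes with several sites were called.

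Site length, counted without the gaps of introns, ran from 137 to 4399 bases with a median of 251. Lengths cluster at steps of 50 bases, with 65.9% of sites within 2 bases of a multiple of 50 and 16.6% at 149 to 151 bases. Longer sites had narrower folds. The interquartile range of the log2 fold was 0.60 for sites of up to 150 bases, 0.46 at 201 to 300 bases and 0.20 over 1000 bases. Differences of at least 2-fold made up 5.37% of sites of up to 150 bases, 0.547% of those of 301 to 500 bases and 0 of the 2750 longer sites.

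Calls went the other way with length. They rose from 1.36% of sites of up to 150 bases (31 of 2273) through 2.24% at 201 to 300 bases to 3.61% over 1000 bases (21 of 582), with a 95% Wilson interval of 2.37 to 5.45% for the last. The increase was larger for sites higher in the cauda (0.660% to 2.23%) than for lower ones (0.704% to 1.37%). The median absolute log2 fold of the called sites was 0.99 in the shortest class and 0.31 in the longest. Higher sites had a median length of 349 bases, lower sites 298 and uncalled sites 251. Length classes were not compared by a test, and the read depth that goes with length is unknown.

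**Figure D3:**
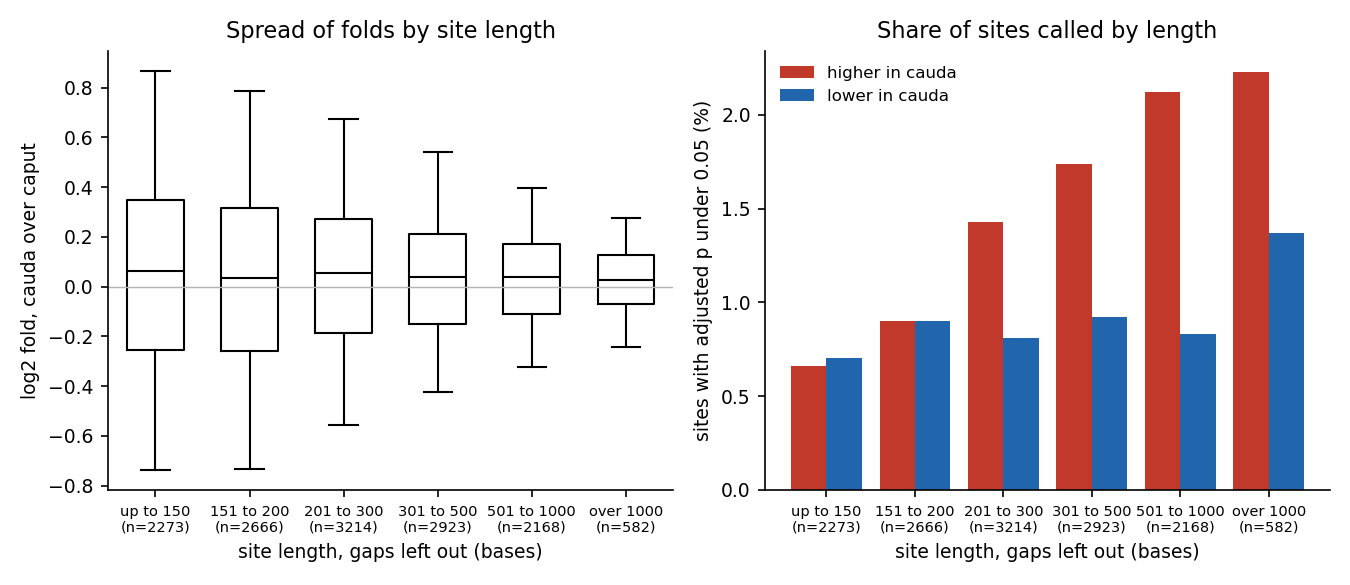
The left panel gives the authors' log2 fold of cauda over caput by site length in bases (box: quartiles and median; whiskers: 5th to 95th percentile), and the right panel the percent of sites of each length class called higher (red) or lower (blue) at an adjusted p under 0.05. The boxes narrow with length while the red bars rise from 0.660% to 2.23%.

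The longest called sites carried small folds. PCDH7 (1849 bases), ZNF131 (1783 bases, log2 fold 0.25) and ZNF23 (1745 bases, 0.39), the latter 2 zinc finger genes, were higher per the authors' deposited table. BOD1L1, a gene of replication fork protection, had a site of 2199 bases at -0.32 (adjusted p = 0.0110, from the authors' deposited table). Fyb1, an adaptor of T cells, had one of 1965 bases at -0.17, and CHD2, a chromatin remodeler, one of 1638 bases at -0.21 per the authors' deposited table. TRAF3IP1, a gene of ciliary transport, held the most candidates of the called lower sites in genes with a symbol, with 36 in the caput list and 33 in the cauda list, 12 of them classed, at a log2 fold of -0.31 (adjusted p = 0.0240, from the authors' deposited table).

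Fold and call were loosely tied. Of the 339 sites that differed at least 2-fold, 277 were not called, among them the extremes of the table: PTCD3, a mitochondrial pentatricopeptide protein gene, at -5.71 (adjusted p = 0.435) and MINK1, a kinase gene, at 5.45 (adjusted p = 0.415) per the authors' deposited table. Both sites are short (148 and 150 bases). The median length of the 277 was 151 bases and of the 62 called ones 199.5. In the other direction, 35 called sites had an absolute log2 fold under 0.2, with a median length of 497 bases, and 26 of them consisted of several blocks separated by gaps. Besides those named above they included SPARC, a matrix glycoprotein gene (0.0260, adjusted p = 7.59e-05), and the spliceosome genes SNU13 (0.0613) and DDX23 (0.0226) per the authors' deposited table. The direction of such a site rests on a fold near 1.

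Sites of 1 block (5840) and of several blocks (7986, 57.8%) were called about as often, 2.17% and 2.34%. Their direction differed more: 88 of 127 called 1-block sites were higher, against 107 of 187 among the others. The median log2 fold over all sites was 0.0848 for 1-block sites and 0.0168 for the rest per the authors' deposited table.

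The authors' candidate lists give the adenosines of each region's own peaks that a predictor scored, from 0.134 to 0.896, and place some of them in m6A classes running from low to very high confidence. All 77035 positions found in both lists carry the same score in both, so the lists tell where a peak was found and not how strongly it was methylated. Of the 13826 sites, 8312 held candidates from both lists, 1765 from the caput list alone, 1768 from the cauda list alone and 1981 from neither, 97 of the last because their candidates also lay in a site of another gene.

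The direction of the calls followed the lists, which come from the same libraries as the folds and are not independent of them. Of the 195 higher sites, 88 held candidates of the cauda list alone and 1 of the caput list alone. Among the 119 lower sites, 63 held candidates of the caput list alone and 4 of the cauda list alone. The median log2 folds of these classes were 0.37 (cauda list alone), -0.26 (caput list alone) and 0.0391 (both lists) per the authors' deposited table. Sites in both lists were still called in 1.58% of cases (91 higher, 40 lower). The 5 exceptions, named after their values were seen, were the first ADAM28 site, which was called higher, and sites of GALNT5, USH1C, RDH12 (-0.51) and GMDS (-0.0477), which were called lower per the authors' deposited table.

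**Figure D4:**
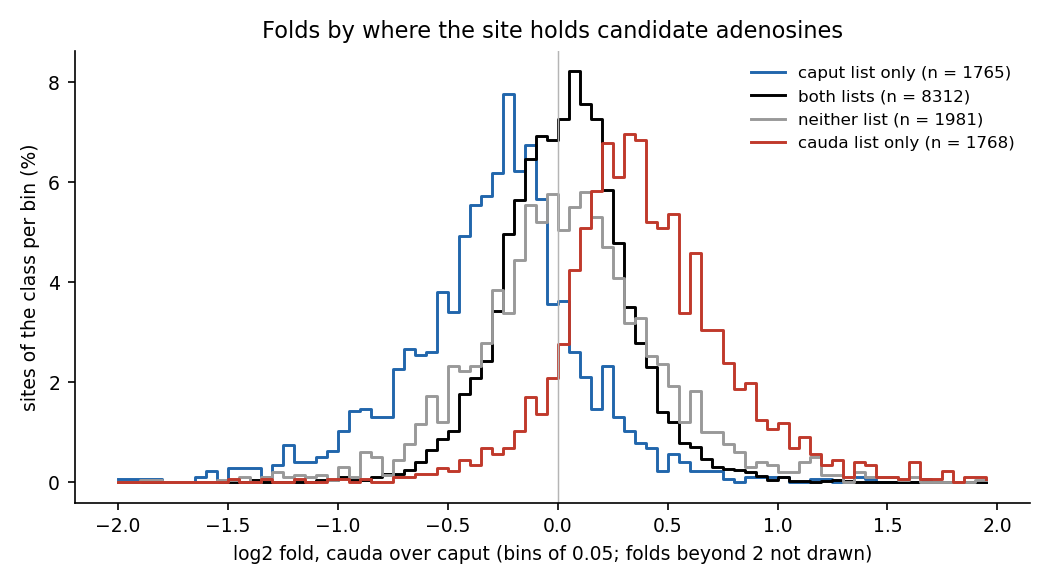
The x axis is the authors' log2 fold of cauda over caput in bins of 0.05 and the y axis the percent of a class's sites per bin, for sites whose candidate adenosines come from the caput list alone, from both lists, from neither or from the cauda list alone. The classes listed in 1 region peak on opposite sides of 0, with medians of -0.26 and 0.37, while sites in both lists centre near 0.

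A classed m6A adenosine was present in 118 of the 195 higher sites (60.5%, 95% Wilson interval 53.5 to 67.1), in 59 of the 119 lower sites (49.6%, 40.8 to 58.4) and in 50.1% of uncalled sites. Intervals cover counting error only, and the shares are not adjusted for site length. Higher, lower and uncalled sites had median lengths of 349, 298 and 251 bases. Sites whose best class was high or very high had a median of 399 bases and those with low or moderate classes 301. Sites with candidates but none classed had a median of 247 bases. Whether length accounts for the shares was not tested. Candidates of the 3 groups, counted over the span with introns, came to 1.79, 1.60 and 1.71 per 100 bases of length without gaps. These values are not densities for sites of several blocks, which made up 54.9%, 67.2% and 57.7% of the groups. The share of candidates classed was 19.3%, 18.3% and 19.1%. In CSMD3 the best-scoring adenosine had a score of 0.747 (position 42726499), in the last ADAM28 site 0.724 (position 6765555), in ZNF23 0.720 (position 6360137) and in ZMAT1 0.717 (position 54371665), each of them in the very high class. The best scores in HOXA10 (0.454), TMEM200A (0.536) and FCRL5 (0.529) fell in the class that is not m6A.

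Genes of the m6A machinery themselves carried sites. Among 18 writer sites under 9 symbols, 1 was called higher and 0 lower, with a median log2 fold of 0.0968 per the authors' deposited table. It lies in Virma, the scaffold that directs the complex on the transcript, on chromosome 18 from 62075381 to 62075679, plus strand. Its 4 sites were at 1.02 (adjusted p = 0.0427), 0.87 (adjusted p = 0.0676), 0.31 and 0.12 per the authors' deposited table. All 4 Virma values are above 0, but 1 passed. The 3 eraser sites, in ALKBH5 (-0.0223 and 0.30) and FTO (-0.0010), were not called per the authors' deposited table, and 1 of them had an unadjusted p under 0.05.

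Readers had 29 sites with a median log2 fold of 0.0811, of which 1 was called higher per the authors' deposited table. This was a site of Fxr1, an RNA-binding protein of the fragile X family, at 0.76 (adjusted p = 0.0263), beside sites at 0.25 and 0.0811 that were not called per the authors' deposited table. The shares called, 5.56% of writer sites and 3.45% of reader sites, rest on 1 site each against 2.27% of all sites.

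The list of proteins secreted onto sperm, like the other lists, was chosen with earlier results of these data known. It had 12 sites under 7 symbols. In 3 genes, 3 sites were called higher and 2 lower (41.7%, against 2.27% of all sites). Of these 5 sites, 3 were those of ADAM28 given above, a gene that the ontology terms also place in the plasma membrane. The others were higher: CRISP2, a cysteine-rich secretory protein also made by spermatids, at 0.47 (adjusted p = 0.0479), and ELSPBP1, a sperm-binding protein, at 0.33 (adjusted p = 0.0257) per the authors' deposited table. CRISP1 (0.14), both sites of the chaperone clusterin (CLU, 0.11 and 0.12) and both of the protease inhibitor SERPINA5 (0.71 and -0.76) were not called per the authors' deposited table. Beta-defensins, antimicrobial peptides that also coat sperm, had 6 sites, of which 2 were called lower (33.3%, against 2.27% of all sites). Both were in 1 gene, DEFB118, at chromosome 12 from 54883274 to 54883819 and from 54884299 to 54893547. They held 6 and 7 candidates in the caput list and 0 in the cauda list. A site of another identifier under that symbol (0.38) and the sites of DEFB116 (0.20), DEFB123 (-0.52) and DEFB129 (0.0278) were not called per the authors' deposited table. At an unadjusted p under 0.05, 5 of the 6 beta-defensin sites passed, 3 higher and 2 lower, per the authors' deposited table.

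Regulators of principal cells had 29 sites and a median of -0.0857, with both Hnf4a sites lower and no other called (6.90% of sites, against 2.27% of all sites) per the authors' deposited table. DICER1, the microRNA-processing enzyme, had 5 sites between -0.52 and 2.37, all uncalled per the authors' deposited table. Of 11 sites of clear and narrow cell genes, 1 was called lower (9.09%), in DMRT2, with a list median of -0.15. The proton pump subunits ATP6V1G3 and ATP6V1C2 were at -0.80 (adjusted p = 0.0692) and 0.45 (adjusted p = 0.0575) per the authors' deposited table. FOXI1, a regulator of these cells, was at -0.15 and -0.23. All of these were uncalled, and 3 of the 11 sites of the list were above 0 per the authors' deposited table. The list for transport of ions and water had 18 sites. The carbonic anhydrase CA12 was lower (-1.23, adjusted p = 0.0141) per the authors' deposited table, while the chloride channel CFTR (0.13 and -0.19) was not called.

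Of 8 posterior HOX genes with 1 site each, HOXA10 was called (12.5% of the sites, against 2.27% of all sites) and HOXC10 (0.51), Hoxc9 (0.27), Hoxa11 (0.0885), HOXB9 (0.0692), HOXD8 (0.0215), HOXD9 (-0.0341) and Hoxc8 (-0.22) were not per the authors' deposited table. Multiciliated cell genes had 28 sites, of which 3 were called (10.7%, against 2.27% of all sites), with RSPH4A lower at both and 1 of 7 sites of DNAH11, an axonemal dynein, higher at 0.94 (adjusted p = 0.0324, from the authors' deposited table). The master regulator FOXJ1 (-0.21) and TEKT1 (-0.49 and -0.19) were not called per the authors' deposited table. The median of the multiciliated list was -0.03, and 13 of its 28 sites were above 0 per the authors' deposited table. Sperm and spermatid genes had 20 sites, of which CRISP2 was the 1 called (5%).

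Markers of other cells in the duct wall were called in single sites. PDGFRA of fibroblasts was at -0.92 (adjusted p = 0.00603), SYNM of smooth muscle at -0.80 (adjusted p = 0.0324) and EMCN of the endothelium at -0.87 (adjusted p = 0.0479) per the authors' deposited table. The lists to which they belong had medians of 0.0658 (24 fibroblast sites), -0.0343 (30 smooth muscle sites) and -0.0358 (21 endothelial sites), near that of all sites, and 1 called site each (4.17%, 3.33% and 4.76%, against 2.27% of all sites). Macrophage and lymphocyte genes had 20 sites from -0.86 to 2.36 with a median of 0.0445, and FCRL5 was the 1 called (5%) per the authors' deposited table. Erythrocyte genes had 1 site (-0.0154). The part of cell composition in these results was not tested.

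Antioxidant enzymes had 16 sites with a median of 0.13, 1 of them called higher (6.25%, against 2.27% of all sites), in GCLM, a subunit of the enzyme that starts glutathione synthesis (0.42, adjusted p = 0.00661, from the authors' deposited table). Its catalytic partner GCLC was at -0.50 and not called. Heat shock genes had 28 sites, 1 of them called (3.57%), with HSPA1A lower (-0.29, adjusted p = 0.00457, from the authors' deposited table), a gene whose reads can be shared with near-identical copies. In the small RNA machinery, 1 of 32 sites (3.12%) was called lower, in DROSHA, the nuclear microRNA processor (-0.80, adjusted p = 0.0186, from the authors' deposited table). In the MAP kinase list 2 sites were called (7.41%), and MAP2K1 was lower and the receptor ERBB2 higher (0.57, adjusted p = 0.00525) among 27 sites per the authors' deposited table. None was called by the test of the authors among 41 of membrane trafficking (9 at an unadjusted p under 0.05), 15 of steroid receptors and enzymes (1) and 9 of basal cells (2), beside 17.2% of all sites at an unadjusted p under 0.05.

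**Figure D5:**
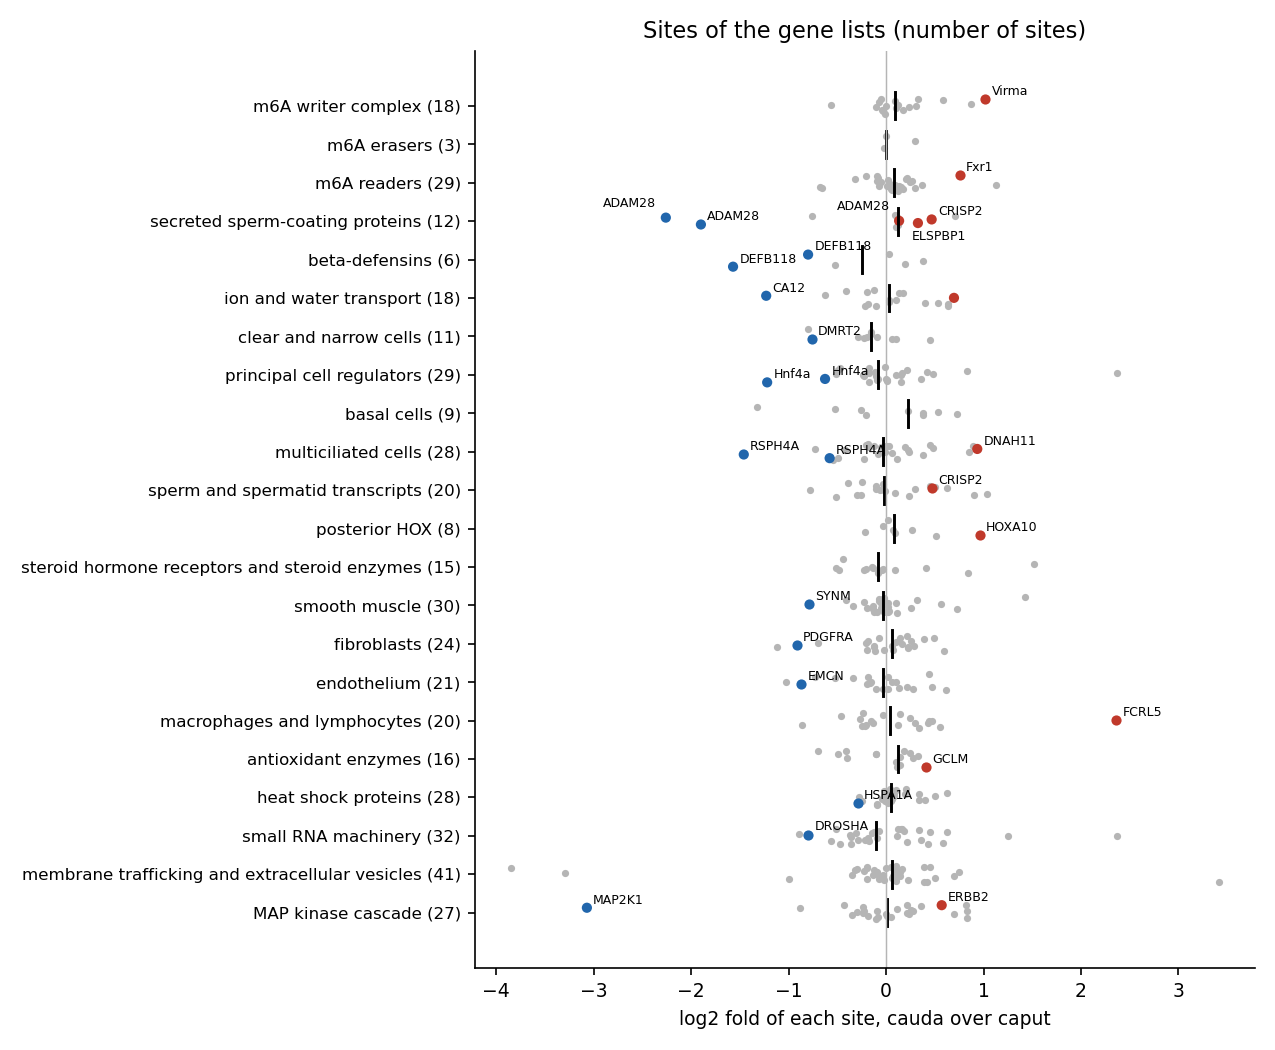
Each point is a site of a gene list (number of sites in brackets) at the authors' log2 fold of cauda over caput; called sites are coloured (red higher, blue lower) and named where reported here, uncalled ones grey, and black bars are list medians. Medians lie between -0.25 and 0.23, and most lists have 1 or 2 coloured points.

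The annotation pathways spread in the same way. Of 91 spliceosome genes, 6 had a called site (6.59%, against 3.72% of all genes). The higher ones were Crnkl1 (0.26), LSM3 (0.47), SNW1 (0.11), SNU13 and DDX23, and HSPA1A was lower per the authors' deposited table. In the ribosome pathway, sites of RPL7A (0.28) and of the mitochondrial subunits MRPL14 (0.21) and MRPS5 (1.41) were higher and one of MRPS9 (-0.45) lower per the authors' deposited table, that is 4 of 59 genes (6.78%). MAPK signalling had 9 called genes of 157 (5.73%), with ERBB2, ANGPT1, ECSIT and IKBKG higher and MAP2K1, PDGFRA, HSPA1A, IGF1R and taok2 lower.

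Endocytosis had 6 called genes of 162 (3.70%, against 3.72% of all genes), 1 higher (WWP1, 0.55) and 5 lower, among them the transferrin receptor TFRC (-0.66) and ARAP2 (-0.72) per the authors' deposited table. In the Hippo pathway 5 of 85 genes had a called site (5.88%). The higher genes were Axin1, BTRC, FRMD6 and YWHAQ, and the lower one was WWC1, the KIBRA gene (-0.64, adjusted p = 0.00363, from the authors' deposited table). Glutathione metabolism had 2 higher sites, in GCLM and SMS, among 18 genes (11.1% of genes, from 2 sites). By the test of the authors, 0 of 69 sites were called in lysosome genes and 0 of 59 in genes of protein digestion and absorption, against 2.27% of all sites. At an unadjusted p under 0.05, 14 of the 69 and 12 of the 59 passed, against 17.2% of all sites. A called site was found in 1 of 91 genes of protein processing in the endoplasmic reticulum (HSPA1A) and 1 of 104 of RNA transport (Fxr1), against 3.72% of all genes.

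Ontology terms gave a similar picture, beside the 3.72% of all genes that had a called site. Genes of the nucleus had a called site in 3.72% of cases (86 of 2310), of the plasma membrane in 4.90% (51 of 1041), of the Golgi apparatus in 5.01% (18 of 359) and of extracellular exosomes in 2.54% (7 of 276). The term for DNA-binding transcription factor activity specific to RNA polymerase II leaves out some such factors, among them Hnf4a, which was called lower. Genes of that term had 9 higher sites and 1 lower site among 827 (1.21%, against 2.27% of all sites). The higher ones included FOXO1, a forkhead factor (0.58, adjusted p = 2.75e-04), RORA, an orphan nuclear receptor (1.17, adjusted p = 0.00282), and THRA, the thyroid hormone receptor (0.11, adjusted p = 0.0380), and the lower one was DMRT2, per the authors' deposited table. RNA-binding proteins had 15 higher and 6 lower sites among 1004 (2.09%, near the 2.27% of all sites). The interferon-induced IFIT2 (0.96, adjusted p = 0.00355) and IFIT3 (0.65, adjusted p = 0.00132) were among the higher per the authors' deposited table. So was the antiviral factor ZC3HAV1 (0.73, adjusted p = 0.0288) per the authors' deposited table. The lower ones were in CHD2, CTIF, FIP1L1, FRG1, MRPS9 and PUS3. Innate immune response genes had 6 higher and 4 lower sites among 210 (4.76%, against 2.27% of all sites). The lower ones were in LGR4, SSC5D and DEFB118, whose 2 called sites are those given above.

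Values of the corpus, between these regions, were set beside those of the named sites where a site of the same gene overlapped. These comparisons share libraries with the cauda and caput comparison and are given side by side only. PDZD2 was at -3.64 for cauda over caput and, over the same span, at -2.80 for corpus over caput (adjusted p = 3.39e-06) per the authors' deposited tables. MAP2K1 (-3.07 and -1.96, the latter with adjusted p = 0.0427) and CEP120 (-1.61 and -1.12, adjusted p = 0.00741) were likewise already lower in the corpus per the authors' deposited tables. For none of PDZD2, MAP2K1 and CEP120 did a site of the gene overlap in the comparison of cauda with corpus.

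At other sites the values ran differently. The lower GPR89A site had -0.26 (adjusted p = 0.752) for corpus over caput and -1.71 (adjusted p = 0.0339) for cauda over corpus, the latter at a site sharing 60.4% of the span, per the authors' deposited tables. PDGFRA had -0.17 (adjusted p = 0.956) and -0.77 (adjusted p = 0.0269) per the authors' deposited tables. HOXA10 had no overlapping site for corpus over caput and 1.03 (adjusted p = 0.00191) for cauda over corpus, and the STX6 site at 1.17 had 1.53 (adjusted p = 2.19e-04) per the authors' deposited tables. The last ADAM28 site, at -2.26 for cauda over caput, was at -0.0186 for corpus over caput (adjusted p = 0.0251) per the authors' deposited tables. Among named sites, called signs for corpus over caput were opposite at 1 site each of RSPH4A, GCNT2, ADAM28 and Macroh2a1. The first ADAM28 site was at 0.13 for cauda over caput and -0.49 for corpus over caput (adjusted p = 5.25e-07) per the authors' deposited tables. Macroh2a1 had -0.0721 and, at a site sharing 73.8% of the span, 0.16 (adjusted p = 4.79e-04) per the authors' deposited tables. The second RSPH4A site was higher in the corpus than in the caput by 1.22 (adjusted p = 0.0141) and the GCNT2 site with a p listed as 0 by 0.43 (adjusted p = 0.0240), while both were lower in the cauda than in the caput per the authors' deposited tables. The other called GCNT2 site was at -0.90 for cauda over caput and at -0.0506 for corpus over caput (adjusted p = 0.00209), the same sign, per the authors' deposited tables. DMRT2 (-0.32, adjusted p = 1.07e-04) and CA12 (-0.87, adjusted p = 0.0275) were called lower for corpus over caput as well per the authors' deposited tables. So were sites that overlap those of Hnf4a, TMEM200A, USH1C and FAM81A in part of the span, per the authors' deposited tables. The shared part of the span was 66.7% and 14.3% for Hnf4a, 50.1% for TMEM200A, 40.5% for USH1C and only 3.74% for FAM81A.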

How the data were processed

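Sites of the cauda and caput comparison were taken as the authors deposited them, and the symbols, ontology terms and pathways were joined by gene identifier. The authors' p-values and adjusted p-values, the ratio (fold) of cauda over caput and its log2 value were used as deposited, per the file headers, with no refit. The candidate lists hold the authors' prediction score and class per adenosine, per the file headers. The submitters' processing notes name the tools Trimmomatic, HISAT2 and deepTools. No source used here names the peak caller, the differential test, the predictor or the build.

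That folds are cauda over caput was checked with the candidate lists (both median signs are given in the results). Starts were raised by 1 base to count from 1. Repeated candidate lines were reduced to 103462 caput and 103697 cauda positions, each with its highest score. A candidate was counted for a site if it lay in its span and in no site of another gene. This step was tested on simulated data. For sites of several blocks the span includes introns. Sites of other comparisons were matched by gene and at least 1 shared base, keeping the largest shared part of the span. The 9 columns of expression values per library match no label and were not used, and depth per library is not given in the files used. Wilson intervals (95%) came from statsmodels 0.14.6.

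Named sites are called sites in genes with a symbol: the 12 with the lowest adjusted p and the 8 with the largest fold in each direction, those in the 24 gene lists, genes with 2 or more called sites, the 5 genes with the most sites, the 3 longest per direction and that with the most candidates per direction. Not every one that qualified is described. Genes named under pathways, ontology terms, small folds, uncalled extremes and exceptions were chosen after their values were seen. The members, lists and rules were chosen with earlier results of these data known. The 17 ontology terms and 1 of the 25 pathways were chosen after the files were seen. No list was tested, and the share of all sites or genes called is given for reading the counts. Results of a few listed genes, and 1 gene list, are not reported here.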

Additional observations from a re-analysis of the deposited data

How the results depend on the processing

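Counts of called sites depended on the threshold. At an unadjusted p under 0.05, there were 1457 higher and 923 lower sites in 2062 genes. An adjusted p under 0.01 left 61 and 43 in 96 genes. A 2-fold minimum left 29 and 33 in 60 genes, which turns the excess of higher sites around. Sites of 1 block alone gave 88 and 39 in 120 genes. Leaving out sites with a p listed as 0, without a candidate or without a symbol, or with an absolute log2 fold under 0.2 (the last 2 choices made after seeing the data) kept all 3 counts within 1.5 times. Sites of 1 gene never overlapped, so counting overlaps once changed nothing. Sites of 1 block had a median log2 fold of 0.0848. The median length of higher sites was 298 bases at the unadjusted threshold. The share of called sites with a classed adenosine was 29.3% for high or very high confidence alone and 62.2% for sites of 1 block, chosen after seeing the data. At an unadjusted p under 0.05, 17.3%, 17.9%, 16.5%, 17.8% and 14.7% of sites passed in genes with 1, 2, 3, 4 and 5 or more sites, and 104 in place of 28 sites of the gene lists. No paired analysis was possible because the tables carry no values per library, and for the same reason no library could be left out in turn.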
